A study of Mus musculus with 24 samples.

Results

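Acute phase proteins are plasma proteins whose output by the liver changes when tissue is injured, infected or inflamed. The 10 genes described here encode proteins of the kind that rise: the serum amyloid A proteins (Saa1, Saa2, Saa3 and Saa4), the orosomucoids (Orm1, Orm2 and Orm3), lipocalin 2 (Lcn2), haptoglobin (Hp) and serum amyloid P component (Apcs). These genes were chosen from earlier results of the same tables, in which Saa2 in the tRNA-Phe-1-1-/- liver and Lcn2 in the tRNA-Phe-1-1-/- brain stood out. Their differences between tRNA-Phe-1-1-/- and the other groups are therefore described without a test. Tests are given for the other 2 mutant lines, which the choice did not use.

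All 10 were found by Ensembl identifier among the 55469 genes of the liver and the brain tables. Total RNA was sequenced from the liver and the brain of mice with 4 genotypes, which the study compared to learn how the loss of single tRNA-Phe genes affects each tissue. Phenylalanine reaches the ribosome on a transfer RNA of its own, which mice make from several gene copies. There were 3 replicates (A, B and C) per genotype and tissue, 24 samples in all. Wild-type (WT) mice carried every copy. The mutant mice were homozygous for a CRISPR-Cas9 deletion of 1 copy, and the copy gives each line its name. One line was labelled tRNA-Phe-GAA-1-1-/- (here tRNA-Phe-1-1-/-), another was labelled tRNA-Phe-GAA-2-1-/- (here tRNA-Phe-2-1-/-), and the last was labelled tRNA-Phe-GAA-3-1-/- (here tRNA-Phe-3-1-/-). The deletions were made in embryos and passed on by breeding to homozygosity, so these mice carried them in every cell and not only in the hepatocytes. The labels describe males on the C57BL/6N background with WT controls matched by age and litter, and name no treatment. The study states an age of 10 weeks for its mice in general, not for these samples. Each sample was a small frozen piece of tissue, and nothing in the labels ties a liver to a brain of the same mouse. The methods name at least 3 WT and 3 mutant mice as the source of the RNA, while the labels do not tie a replicate to an animal.

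Hepatocytes switch on acute phase genes when cytokines of the interleukin 6 and interleukin 1 families reach the liver. Interleukin 6 acts through its receptor, Janus kinases and the transcription factor STAT3, interleukin 1 and tumour necrosis factor act through NF-kB, and the C/EBP factors Cebpb and Cebpd are induced by and act with both. Socs3 is an inhibitor of the receptor that STAT3 itself induces. A group of "negative" acute phase proteins, among them albumin and transthyretin, falls in the same response. In the brain, Lcn2 is made mainly by activated astrocytes and endothelial cells.

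The values are normalised counts, that is, estimated reads per gene divided by the size factor of the sample, as the authors deposited them. A liver sample held 32276896 to 51584522 reads and a brain sample 30365760 to 46225360. The labelled tissues carried their own markers. Hepatocyte genes (9 genes, without Ttr, which the choroid plexus also makes) summed to 3045000 to 4206000 normalised counts in a liver sample, against 39.5 to 1946 in a brain sample. A list of 8 neuronal genes summed to 108000 to 182100 in a brain sample. In tissue pieces like these, fewer cells of a type and less RNA per cell cannot be told apart.

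The genes lie on 5 chromosomes (GRCm38.p6, RefSeq). The Saa genes form 1 cluster on chromosome 7, with Saa3 at 46711998 to 46719615, Saa4 at 46727992 to 46732603, Saa1 at 46740497 to 46743181 and Saa2 at 46751833 to 46754313. The Orm genes lie side by side on chromosome 4, with Orm1 at 63344556 to 63348163, Orm3 at 63356069 to 63359506 and Orm2 at 63362449 to 63365877. Lcn2 lies on chromosome 2 (32384637 to 32387739), Hp on chromosome 8 (109575128 to 109579172) and Apcs on chromosome 1 (172893961 to 172895054). Neighbours in these clusters are close copies. The canonical transcripts of Saa1 and Saa2 were 80.9% identical, and 20.6% of the 31-base words of Saa1 also occurred in Saa2. Orm1 and Orm2 were 85.5% identical and shared 25.8% of the words of Orm1. Reads from such stretches can be divided between the copies, so the split between Saa1 and Saa2, and among the 3 Orm genes, is less certain than their sums. The symbols Saa1 and Saa2 are also listed as synonyms of each other in RefSeq, and they are used here as GENCODE pairs them with the identifiers.

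Promoter sequences (RefSeq, GRCm38.p6, 250 bases before to 50 after the transcript start that its table uses) were at hand for 8 of the 10 genes. They are shown for Lcn2, the member that stood apart in the brain, and for the neighbouring copies Saa1 and Saa2 and Orm2 and Orm3. In Saa1 and Orm3 that start lies inside the gene span given above, and positions are counted from it. Capitals mark matches to the C/EBP pattern TTNNGNAA on either strand, in the direction of the gene.
Saa1, chr7:46742931-46743230, minus strand: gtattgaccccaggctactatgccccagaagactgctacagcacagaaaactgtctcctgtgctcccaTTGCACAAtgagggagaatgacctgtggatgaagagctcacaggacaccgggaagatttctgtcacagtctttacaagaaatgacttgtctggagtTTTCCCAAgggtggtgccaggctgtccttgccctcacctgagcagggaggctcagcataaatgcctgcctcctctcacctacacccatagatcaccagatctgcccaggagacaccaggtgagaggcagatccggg
Saa2, chr7:46751583-46751882, plus strand: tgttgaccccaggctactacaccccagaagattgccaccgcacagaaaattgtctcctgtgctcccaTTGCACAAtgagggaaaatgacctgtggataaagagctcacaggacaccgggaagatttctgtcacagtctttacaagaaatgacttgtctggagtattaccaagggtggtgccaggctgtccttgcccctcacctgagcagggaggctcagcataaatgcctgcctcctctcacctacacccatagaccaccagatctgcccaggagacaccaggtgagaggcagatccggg
Orm2, chr4:63362199-63362498, plus strand: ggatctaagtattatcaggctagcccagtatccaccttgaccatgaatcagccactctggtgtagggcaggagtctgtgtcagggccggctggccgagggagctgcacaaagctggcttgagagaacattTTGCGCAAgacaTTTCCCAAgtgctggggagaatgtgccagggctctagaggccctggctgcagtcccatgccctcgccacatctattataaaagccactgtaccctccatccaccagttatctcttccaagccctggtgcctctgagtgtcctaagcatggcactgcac
Orm3, chr4:63355908-63356207, plus strand: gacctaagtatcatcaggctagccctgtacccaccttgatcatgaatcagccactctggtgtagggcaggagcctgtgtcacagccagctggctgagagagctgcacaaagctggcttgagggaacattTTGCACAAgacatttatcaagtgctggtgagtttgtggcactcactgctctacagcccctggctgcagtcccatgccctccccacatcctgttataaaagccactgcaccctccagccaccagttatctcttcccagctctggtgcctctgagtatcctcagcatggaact
Lcn2, chr2:32387690-32387989, minus strand: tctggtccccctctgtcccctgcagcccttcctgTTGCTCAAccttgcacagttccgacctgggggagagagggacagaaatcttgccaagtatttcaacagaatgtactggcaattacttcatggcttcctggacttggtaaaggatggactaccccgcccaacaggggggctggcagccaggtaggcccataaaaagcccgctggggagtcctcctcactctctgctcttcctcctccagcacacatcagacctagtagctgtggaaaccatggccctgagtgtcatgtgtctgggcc

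The Saa1 and Saa2 promoters are 95.3% identical and point in opposite directions, while those of Orm2 and Orm3 are 86.2% identical. All 4 carry a C/EBP match of almost the same letters, at -182 to -175 from the start in Saa1, -183 to -176 in Saa2, -120 to -113 in Orm2 and -121 to -114 in Orm3. Saa1 and Orm2 carry a second match, at -86 to -79 and at -108 to -101, that their copies lack. The C/EBP pattern occurred in 7 of the 8 promoters (not in that of Apcs) and in 40.7% of all 32851 promoters of the same length. The STAT pattern TTCNNNGAA occurred in 1 of the 8 (Apcs) and in 8.3% of all, and the NF-kB pattern in 0 of the 8 and in 4.5% of all. No match overlapped a match of another pattern. A match says only that these letters are present, and the windows end 250 bases before the start.

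In the liver, the acute phase genes were high in the tRNA-Phe-1-1-/- samples and, apart from Orm3, near the WT level in both other lines. Of the 10 genes, 9 were higher in every tRNA-Phe-1-1-/- liver than in every WT liver, and Apcs was the exception. Among all 15856 genes tested in the liver, 17.2% had groups that did not overlap in this direction and 8.27% were called higher by limma (adjusted p under 0.05). Since the same comparison chose the genes, nothing is read from that count. The median difference of the 10 genes was 3.20 on the log2(normalised count + 1) scale, beside -0.01 over all genes tested. Against the 9 livers of the other 3 genotypes, 7 of the 10 genes were higher in each tRNA-Phe-1-1-/- liver, as were 7.46% of all genes tested. The 3 exceptions were Orm1, Orm3 and Apcs. The median difference was 2.58 against tRNA-Phe-2-1-/- and 2.32 against tRNA-Phe-3-1-/-, again without a test.

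Serum amyloid A1 and A2 are lipoprotein-bound proteins that the liver can raise more than almost any other plasma protein. Saa1 had 1395, 316 and 642 normalised counts in WT livers A, B and C, and 32100, 43650 and 9799 in the tRNA-Phe-1-1-/- livers. Saa2 had 693, 134 and 354 in the WT livers and 22580, 35420 and 4757 in the tRNA-Phe-1-1-/- livers. The groups did not overlap for either gene, and the lowest mutant liver was well above the highest of the 9 other livers (1395 for Saa1 and 693 for Saa2, both WT replicate A). On the log2 scale the differences were 5.19 ± 0.62 for Saa1 and 5.60 ± 0.74 for Saa2 (± standard error of the fit, n = 3 per group). The ratios of the group means were 36.4 and 53.1.

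Saa3, which macrophages and other cells also make, ran from 88.0 to 111 in the WT livers. Its values in the tRNA-Phe-1-1-/- livers were 1304, 5807 and 277. Replicate B was thus far above the other 2, and the SD of the log2 values within this group was 2.19, against 0.18 in WT. The difference from WT was 3.65 ± 0.89. Saa4, a serum amyloid A that livers make at rest, was the steadiest of the 4. Its values were 3387, 2909 and 3127 in the WT livers and 28470, 22000 and 16530 in the tRNA-Phe-1-1-/- livers, a difference of 2.80 ± 0.22. In Saa4 replicate A was the highest, unlike the other Saa genes.

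**Figure D1:**
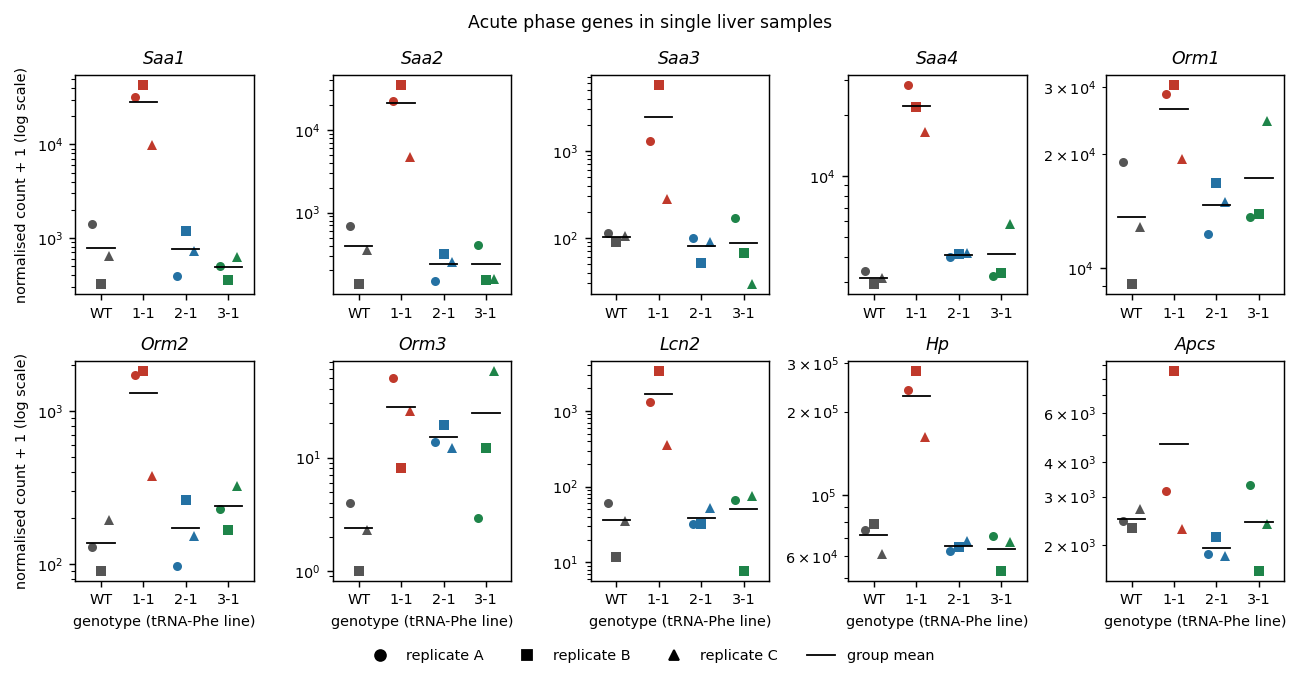
Normalised count plus 1 (log axis, with its own range in each panel) of the 10 acute phase genes in each liver sample, by genotype. Symbols stand for replicates A, B and C, and lines for the group means. In 7 of the 10 panels all 3 tRNA-Phe-1-1-/- livers lie above the 9 other livers, and replicate C is the lowest of the 3 in 9 panels.

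Orosomucoids are plasma lipocalins that bind drugs and lipids. Orm1 is the abundant form, with 19040, 9064 and 12840 normalised counts in the WT livers. It had 28910, 30530 and 19440 in the tRNA-Phe-1-1-/- livers, a difference of 0.98 ± 0.29. The lowest of these values was only just above WT replicate A, and 1 tRNA-Phe-3-1-/- liver (replicate C, 24410) lay within the tRNA-Phe-1-1-/- range. Orm2 was much lower, at 129, 89.9 and 193 in the WT livers. In the tRNA-Phe-1-1-/- livers it reached 1706 and 1825 in replicates A and B and 377 in replicate C (difference 3.00 ± 0.56). So the 2 copies differed in how far apart the groups were, with ratios of the group means of 1.93 for Orm1 and 9.48 for Orm2.

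Orm3 was close to the limit of detection in the WT livers, with 2.93, 0 and 1.30 normalised counts, or 4 reads in all. It had 49.9, 7.05 and 24.6 in the tRNA-Phe-1-1-/- livers, 12.8, 18.5 and 11.1 in the tRNA-Phe-2-1-/- livers, and 1.92, 11.3 and 57.3 in the tRNA-Phe-3-1-/- livers. Of the 9 mutant livers, 8 were above every WT liver, the exception being tRNA-Phe-3-1-/- replicate A. The highest value of all was in a tRNA-Phe-3-1-/- liver. Orm3 passed the filter of a mean of 10 normalised counts only through the mutant samples. Its difference between tRNA-Phe-1-1-/- and WT was 3.39 ± 0.99 with a pseudocount of 1 and 4.78 with a pseudocount of 0.1.

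Lipocalin 2 binds bacterial siderophores and so keeps iron from microbes, and both hepatocytes and neutrophils make it. Lcn2 had 59.6, 10.9 and 33.7 normalised counts in the WT livers. In the tRNA-Phe-1-1-/- livers it had 1298, 3388 and 356, a difference of 5.31 ± 0.95. Its lowest mutant value exceeded the highest value in the 9 other livers, 75.4.

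Haptoglobin binds free haemoglobin and was by far the most abundant of the 10. Hp had 74550, 78440 and 61070 normalised counts in the WT livers and 239500, 280800 and 162000 in the tRNA-Phe-1-1-/- livers. The difference was 1.64 ± 0.19 and the ratio of the means 3.19. Serum amyloid P component is a pentraxin that binds amyloid and cell debris. Apcs had 2452, 2318 and 2696 in the WT livers, and 3132, 8549 and 2282 in the tRNA-Phe-1-1-/- livers. Only replicate B stood apart, and the groups overlapped (0.67 ± 0.39). Without tRNA-Phe-1-1-/- replicate B the difference was 0.11.

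The tRNA-Phe-1-1-/- livers also differed from each other. Replicate B had the highest value of the 3 for 8 of the 10 genes and replicate A for Saa4 and Orm3, while replicate C had the lowest value for 9 of them. The 10 genes together held 0.854%, 1.08% and 0.518% of all normalised counts in tRNA-Phe-1-1-/- livers A, B and C. In the 9 other livers they held between 0.173% and 0.238%. Haptoglobin made up 65.0% to 75.1% of that sum in the tRNA-Phe-1-1-/- livers and 73.2% to 84.0% in WT.

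Between genes, levels were compared as normalised counts per kilobase of the canonical transcript. In WT the order of the means was Hp (53010), Orm1 (16540), Apcs (2555), Saa4 (1483), Saa1 (1036), Saa2 (604), Orm2 (177), Saa3 (101), Lcn2 (38.0) and Orm3 (1.74). Saa4 and Saa1, Saa1 and Saa2, and Saa2 and Orm2 had overlapping ranges over the 3 samples, while Hp and Orm1 stood clear of all below them. In tRNA-Phe-1-1-/- the order was Hp (169000), Saa1 (37670), Saa2 (32080), Orm1 (31870), Saa4 (10540), Apcs (4779), Saa3 (2446), Lcn2 (1837), Orm2 (1681) and Orm3 (33.6). Saa1 and Saa2 had thus moved from the fifth and the sixth place to the second and the third. Their ranges overlapped each other and those of Orm1 and Saa4, and the range of Saa2 also overlapped that of Apcs. So the order among these genes is not fixed. Hp lay above and Orm3 below the ranges of all the others. In both other lines the order of the 10 means was that of WT.

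The other 2 lines gave the tested comparisons, and no member passed the test in either. By limma, 0 of the 10 genes were called in tRNA-Phe-2-1-/- livers, where 0.132% of all genes tested were called. In tRNA-Phe-3-1-/- livers 0 of the 10 were called, beside 0.883% of all genes. Counts were also 0 with edgeR and with DESeq2. At an unadjusted p under 0.05, 1 of the 10 passed in each line (Orm3), beside 14.9% of all genes for tRNA-Phe-2-1-/- and 16.1% for tRNA-Phe-3-1-/-. The median difference of the 10 was 0.12 in tRNA-Phe-2-1-/- (0 over all genes) and 0.07 in tRNA-Phe-3-1-/- (0.01 over all genes). Both comparisons used the same WT livers.

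Single genes in these lines lay as follows. Saa1 had 390, 1177 and 725 normalised counts in the tRNA-Phe-2-1-/- livers and 497, 349 and 622 in the tRNA-Phe-3-1-/- livers, all within the WT range. The differences were 0.08 ± 0.62 (limma, adjusted p = 0.969) and -0.46 ± 0.62 (adjusted p = 0.755). Saa4 had 3960, 4103 and 4184 in the tRNA-Phe-2-1-/- livers, above each WT liver (as were 13.1% of all genes), with a difference of 0.38 ± 0.22 (limma, adjusted p = 0.445). In the tRNA-Phe-3-1-/- livers it had 3191, 3332 and 5823 (0.34 ± 0.22, adjusted p = 0.500). Hp differed by -0.12 ± 0.19 (limma, adjusted p = 0.803) and by -0.16 ± 0.19 (adjusted p = 0.724). For Orm3 the differences were larger than for any other member but rested on low counts: 2.83 ± 0.99 (limma, adjusted p = 0.233) and 2.62 ± 0.99 (adjusted p = 0.223).

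Between the 2 lines themselves, 0 of the 10 genes were called by limma in the liver (0% of all genes were called). The count at an unadjusted p under 0.05 was also 0 (6.68% of all genes), edgeR and DESeq2 called 0, and the median difference was -0.07. The difference did not exceed its standard error for any member. Orm2 (0.56 ± 0.56, limma, adjusted p = 0.908) and Saa1 (-0.54 ± 0.62, adjusted p = 0.921) had the largest ones.

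**Figure D2:**
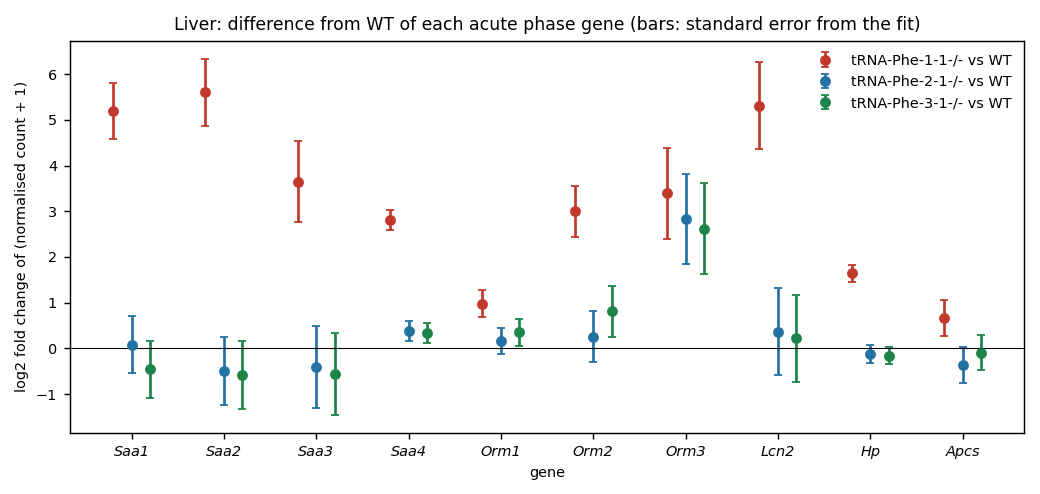
Difference from WT on the log2(normalised count + 1) scale for each acute phase gene in the liver, by mutant line, with bars for the standard error of the fit (n = 3 per group). The tRNA-Phe-1-1-/- points run from 0.67 for Apcs to 5.60 for Saa2, while the other lines stay between -0.58 and 0.81 apart from Orm3.

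The upstream genes of the pathway were read from lists written for this tissue with earlier results known. Their calls and p-values for tRNA-Phe-1-1-/- against WT, in either tissue, are therefore a description. They are no independent support for a change of the pathway. Among 15 cytokines and receptors, 11 were tested in the liver, and 6 rose and 1 fell in tRNA-Phe-1-1-/- against WT (limma, adjusted p under 0.05). The shares called among all genes were 8.27% higher and 9.08% lower. Of the 11, limma called 3 without WT replicate B and 4 without tRNA-Phe-1-1-/- replicate A. The interleukin 1 receptor Il1r1 rose most clearly, from 589 to 793 normalised counts in the WT livers to 3283, 4901 and 1877 (2.22 ± 0.30, adjusted p = 0.000717). The shared interleukin 6 receptor subunit Il6st rose by 0.41 ± 0.08 (adjusted p = 0.00653), the tumour necrosis factor receptor Tnfrsf1a by 0.72 ± 0.16 (adjusted p = 0.00974) and the oncostatin M receptor Osmr by 1.25 ± 0.30 (adjusted p = 0.0166). Osmr was not called without WT replicate B (adjusted p = 0.0563) or without tRNA-Phe-1-1-/- replicate B (adjusted p = 0.0536). The receptor that fell was the glucocorticoid receptor Nr3c1 (-0.21 ± 0.06, adjusted p = 0.0488 by limma, not called by edgeR), an effector of the glucocorticoids that act with these cytokines.

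The cytokine transcripts themselves were scarce in the liver. Il6 ran from 0 to 3.07 normalised counts over the 12 livers and Tnf from 5.19 to 13.5, and both were under the filter. Il1b had 67.4, 22.7 and 59.7 in the WT livers and 298, 130 and 132 in the tRNA-Phe-1-1-/- livers, so the groups did not overlap (1.91 ± 0.52, adjusted p = 0.0279 by limma). That call was lost without WT replicate B (adjusted p = 0.0988), WT replicate C (adjusted p = 0.0534) or tRNA-Phe-1-1-/- replicate A (adjusted p = 0.112).

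Of 22 signal factors and feedback genes, all tested, 13 rose and 0 fell in the tRNA-Phe-1-1-/- livers (8.27% and 9.08% of all genes). The C/EBP factors were the clearest. Cebpd had 122, 86.0 and 72.6 normalised counts in WT and 414, 648 and 518 in tRNA-Phe-1-1-/- (2.49 ± 0.23, adjusted p = 0.000114 by limma). Cebpb had 764, 661 and 484 in WT and between 2667 and 2678 in the mutant livers (2.09 ± 0.22, adjusted p = 0.000195). Cebpb was thus almost the same in the 3 mutant livers, in which Saa1 spanned 9799 to 43650. Socs3 rose from 121 to 169 in WT to 604 to 984 (2.51 ± 0.31, adjusted p = 0.000529), and Stat3 from 3651 to 4971 to 6719 to 8490 (0.81 ± 0.13, adjusted p = 0.00207). Among the other called genes were NF-kB genes and inhibitors (Nfkbia, Nfkbiz, Bcl3, Relb, Nfkb2 and Rela) and the kinase gene Jak1.

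Beyond the 10 genes, 30 further positive acute phase genes were listed and 28 tested. Of these, 20 rose and 0 fell in the tRNA-Phe-1-1-/- livers (8.27% and 9.08% of all genes). Without tRNA-Phe-1-1-/- replicate A, 13 of the 28 rose. The clearest were the serine protease inhibitor gene Serpina3m (1.01 ± 0.07, limma, adjusted p = 3.63e-05), the metalloreductase gene Steap4 (3.05 ± 0.25, adjusted p = 5.38e-05), Serpina10 (1.09 ± 0.09, adjusted p = 5.87e-05) and the zinc transporter gene Slc39a14 (1.63 ± 0.16, adjusted p = 0.000121). C-reactive protein, the classical human marker, rose less than these. Crp had 6479 to 6887 normalised counts in WT and 8572 to 11970 in tRNA-Phe-1-1-/- (0.61 ± 0.11, limma, adjusted p = 0.00293). The complement gene C3 was not called (-0.16 ± 0.24, adjusted p = 0.704).

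On the list of 20 negative acute phase genes, all tested, 0 rose and 6 fell (8.27% and 9.08% of all genes). The 4 with the lowest adjusted p were the polyamine oxidase gene Paox (-0.66 ± 0.15, limma, adjusted p = 0.0131), Itih1 (-0.45 ± 0.12, adjusted p = 0.0216), the antithrombin gene Serpinc1 (-0.34 ± 0.09, adjusted p = 0.0282) and Igf1 (-0.31 ± 0.09, adjusted p = 0.0377). These falls were small. The count was 1 without WT replicate B, 0 without WT replicate C, 1 without tRNA-Phe-1-1-/- replicate A, 3 without tRNA-Phe-1-1-/- replicate B and 3 without tRNA-Phe-2-1-/- replicate C. Albumin, the best known of them, was not called by limma (Alb, -0.48 ± 0.28, adjusted p = 0.267), while DESeq2 called it lower.

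In the other 2 lines limma called 0 genes of these 4 lists against WT, beside 0.132% (tRNA-Phe-2-1-/-) and 0.883% (tRNA-Phe-3-1-/-) of all genes. At an unadjusted p under 0.05, 2 of 11 cytokine and receptor genes and 1 of 22 signal genes passed in tRNA-Phe-2-1-/- livers. So did 3 of 28 positive and 2 of 20 negative acute phase genes, beside 14.9% of all genes. The counts in tRNA-Phe-3-1-/- livers were 0, 4, 2 and 0, beside 16.1% of all genes. edgeR called 0 in both lines. DESeq2 called Cebpb higher and Serpina6 lower in tRNA-Phe-2-1-/-, and Socs3 and Serpina3g higher in tRNA-Phe-3-1-/-. Socs3 had 236, 164 and 138 normalised counts in the tRNA-Phe-2-1-/- livers and 516, 206 and 339 in the tRNA-Phe-3-1-/- livers.

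**Figure D3:**
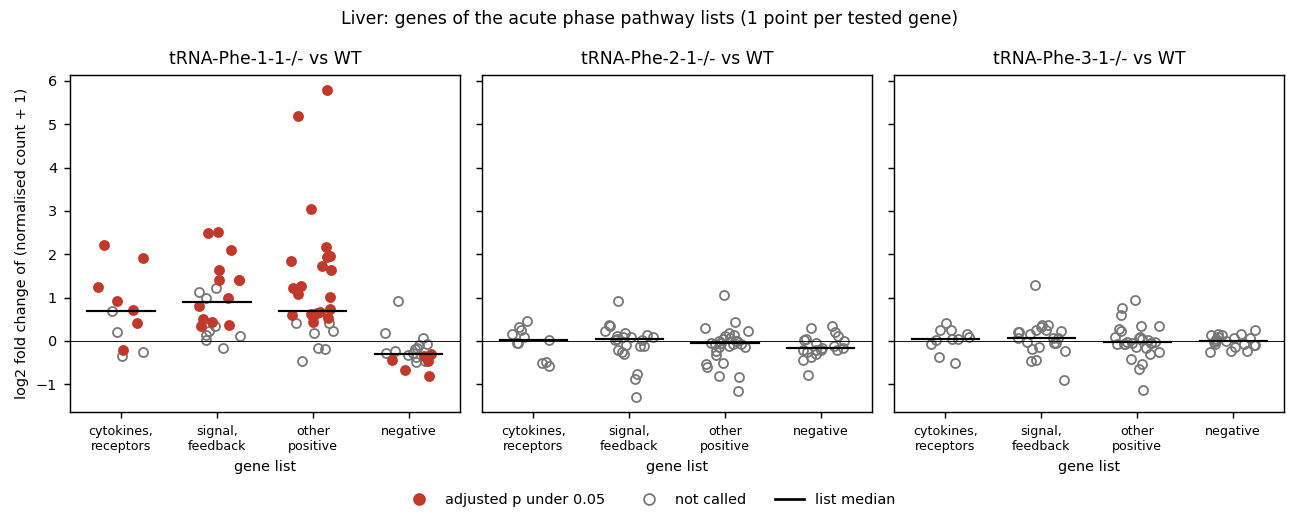
Difference from WT in the liver on the log2(normalised count + 1) scale for the tested genes of 4 pathway lists, in each mutant line, with 1 point per gene, filled where limma called it, and a line at the list median. The medians in tRNA-Phe-1-1-/- were 0.69, 0.90, 0.70 and -0.30, and no point is filled in the other 2 lines.

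Markers of other cells were read in the same livers. Of 14 neutrophil genes, 5 were tested. In tRNA-Phe-1-1-/- 4 rose (Lrg1, S100a9, S100a8 and Prtn3) and 0 fell, beside 8.27% and 9.08% of all genes. The filter used the mean over all 12 livers, so genes low in WT could pass it through the livers where they were high. Nothing is read from that count. Lrg1, which hepatocytes also make and which is on the positive acute phase list too, held most of the list's counts. The other 13 genes summed to 22.5 to 81.7 normalised counts in WT, to 260, 430 and 148 in tRNA-Phe-1-1-/- livers A, B and C, to 55.3 to 78.4 in tRNA-Phe-2-1-/- and to 61.3 to 110 in tRNA-Phe-3-1-/-. S100a9 had 95.0, 143 and 54.2 in the tRNA-Phe-1-1-/- livers against at most 23.7 in WT, while the defining genes Ngp, Ly6g, Elane and Camp stayed at or below 4.09 in all livers. The summed neutrophil level had the same order over these 3 livers as Saa1, Saa2 and Lcn2, and its part in the result was not tested. Of 14 macrophage and Kupffer cell genes, all tested, Cd14 alone rose by limma and edgeR, and DESeq2 also called Cd68 higher (Cd14 had 36.2 to 45.4 in WT, 103 to 195 in tRNA-Phe-1-1-/-). The summed list ran from 12200 to 13300 in WT and from 11920 to 16820 in tRNA-Phe-1-1-/-.

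Over the 12 livers, the genes outside the 10 whose log2 values ran most like the mean of Saa1 and Saa2 were Lrg1 (Pearson r = 0.970), Chd9 (0.967), Snx10 (0.966), Steap4 (0.966) and Mt2 (0.957), among 12360 genes with a mean of at least 50. The Spearman rho of these was 0.790, 0.524, 0.867, 0.566 and 0.769. The r values rest mostly on the gap between the 3 tRNA-Phe-1-1-/- livers and the rest, and are a description only.

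In the brain, Lcn2 was the member that stood apart. It had 0.855, 2.11 and 23.7 normalised counts in the WT brains and 221, 485 and 80.2 in the tRNA-Phe-1-1-/- brains. The tRNA-Phe-2-1-/- brains had 2.05, 0 and 4.43, and the tRNA-Phe-3-1-/- brains 5.39, 41.9 and 15.8. All 3 tRNA-Phe-1-1-/- brains were thus above the 9 other brains, as were those of 4.32% of all genes tested. The difference from WT was 5.30 ± 1.07 on the log2 scale (n = 3 per group), which is given without a test because Lcn2 was chosen on it. Among all 19228 genes tested in the brain, 12.8% had groups that did not overlap in this direction, 0.624% were called higher and 0.426% lower in that comparison. In these brains replicate B was the highest and replicate C the lowest, as in the livers labelled with the same letters, although the labels do not pair a liver with a brain.

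Of the other 9 genes, only Hp passed the filter in the brain. It had 38.5, 30.6 and 13.5 normalised counts in WT, 152, 11.4 and 12.0 in tRNA-Phe-1-1-/-, 16.4, 11.2 and 45.8 in tRNA-Phe-2-1-/-, and 7.54, 10.5 and 14.8 in tRNA-Phe-3-1-/-. Replicate A was the only tRNA-Phe-1-1-/- brain outside the range of the others, and the difference from WT turned from 0.15 ± 0.88 to -1.05 without it. It turned to -0.28 without WT replicate C. The same brain had the highest counts of Saa1 (30.9) and Saa4 (16.0). In the other 11 brains Saa1 and Saa4 did not exceed 7.38 and 5.17. The remaining members, Saa2, Saa3, Orm1, Orm2, Orm3 and Apcs, ran from 0 to 12.0 in all brains. Orm2 was at 0 in 11 of the 12 brains.

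Transcripts of hepatocytes were present in some brain samples, and among the tRNA-Phe-1-1-/- brains they were highest in the replicate with the highest Hp. Alb had 851, 5.195 and 36.1 normalised counts in tRNA-Phe-1-1-/- brains A, B and C, 625, 227 and 140 in the WT brains, 310, 599 and 877 in tRNA-Phe-2-1-/- and 3.23, 9.60 and 36.5 in tRNA-Phe-3-1-/-. The sum of the 9 hepatocyte genes was 1946, 39.5 and 117 in the tRNA-Phe-1-1-/- brains and 370 to 1363 in WT. Per 1000 Alb counts, Hp stood at 179 in tRNA-Phe-1-1-/- brain A, and at 183, 157 and 103 in the tRNA-Phe-1-1-/- livers. In brains B and C, with little Alb, it stood at 2200 and 333. In the WT brains Hp stood at 61.6, 135 and 96.7, against 27.2 to 40.6 in the WT livers. It stood at 53.0, 18.6 and 52.2 in the tRNA-Phe-2-1-/- brains, against 38.4 to 43.8 in the livers of that line. In the tRNA-Phe-3-1-/- brains it stood at 2330, 1090 and 405, against 26.0 to 33.7 in the livers. Saa1 stood at 36.3 in tRNA-Phe-1-1-/- brain A and at 6.22 to 24.5 in the tRNA-Phe-1-1-/- livers, and Saa4 at 18.8 and at 10.5 to 21.8. In the WT brains Saa1 stood at 5.47, 0 and 32.2, against 0.131 to 0.760 in the WT livers. In the tRNA-Phe-1-1-/- samples the ratios of Lcn2 lay further apart. Lcn2 stood at 260 per 1000 Alb counts in that brain and at 93400 and 2220 in brains B and C, against 0.226 to 1.90 in the tRNA-Phe-1-1-/- livers. The highest Lcn2 value was in the tRNA-Phe-1-1-/- brain with the least Alb, where the ratio rests on 5.195 normalised counts of Alb. For Hp, Saa1 and Saa4 in brain A, and for Lcn2 in the tRNA-Phe-1-1-/- brains, the part of liver transcripts in the result was not tested.

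**Figure D4:**
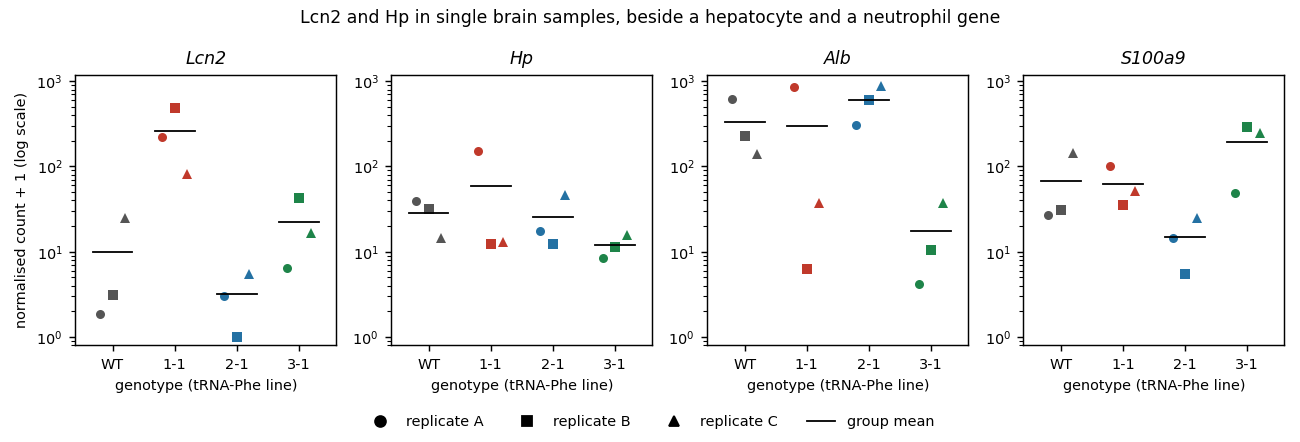
Normalised count plus 1 (log axis, the same range in each panel) of Lcn2, Hp, the hepatocyte gene Alb and the neutrophil gene S100a9 in each brain sample, by genotype, with symbols for replicates and lines for group means. Lcn2 is above the 9 other brains in all 3 tRNA-Phe-1-1-/- samples, Hp only in replicate A, where Alb is at 851, and S100a9 is highest in tRNA-Phe-3-1-/- replicates B and C.

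Among the tRNA-Phe-1-1-/- brains, neutrophil genes had another order than Lcn2. The 13 neutrophil genes other than Lrg1 summed to 386, 131 and 179 normalised counts in the tRNA-Phe-1-1-/- brains, to 138, 125 and 465 in the WT brains to 122, 83.7 and 128 in the tRNA-Phe-2-1-/- brains and to 192, 1030 and 687 in the tRNA-Phe-3-1-/- brains. In both of the last groups their order over the 3 brains was that of Lcn2, and their part in its values was not tested. S100a9 was highest in tRNA-Phe-3-1-/- brains B and C, at 288 and 243, where Lcn2 was at 41.9 and 15.8. In WT brain C, with S100a9 at 144, Lcn2 was the highest of the WT brains. Of 10 reactive astrocyte genes 8 were tested, and of 10 microglial genes all were. In these 2 lists limma called 0 genes in tRNA-Phe-1-1-/- against WT. At an unadjusted p under 0.05, 2 and 3 passed, beside 3063 of all 19228 genes tested. For these lists edgeR called 0 genes, and DESeq2 called 0 astrocyte genes and 2 microglial genes (C1qb and Tmem119). The astrocyte list summed to 3064 to 5544 in WT and 4761 to 5136 in tRNA-Phe-1-1-/-. Gfap had 2845 to 3224 in the tRNA-Phe-1-1-/- brains and 1620 to 3797 in WT. Of 10 brain endothelial genes, all tested, limma called 2 higher and 2 lower in tRNA-Phe-1-1-/- against WT. At an unadjusted p under 0.05, 6 of these 10 passed, beside the same 3063 of all genes tested. Among all genes tested, 0.624% were called higher and 0.426% lower. The endothelial list summed to 10260 to 10700 in WT and 10500 to 11650 in tRNA-Phe-1-1-/-. The part of these cell types in the Lcn2 values was not tested.

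In the tested lines, neither Lcn2 nor Hp was called in the brain. limma called 0 of the 2 genes in each line against WT and between the 2 lines, where 0% of all genes were called in each comparison. The counts at an unadjusted p under 0.05 were 0 in tRNA-Phe-2-1-/- (5.57% of all genes), 0 in tRNA-Phe-3-1-/- (12.3%) and 1 between the lines (9.93%), and edgeR and DESeq2 called 0. For Lcn2 the differences from WT were -1.04 ± 1.07 (limma, adjusted p = 0.961) and 1.67 ± 1.07 (adjusted p = 0.564). For Hp they were -0.29 ± 0.88 (adjusted p = 0.990) and -1.18 ± 0.88 (adjusted p = 0.626). The unadjusted pass was that of Lcn2, 2.71 ± 1.07 higher in tRNA-Phe-3-1-/- than in tRNA-Phe-2-1-/- (limma, adjusted p = 0.440), and these 2 groups did not overlap, as for 5.79% of all genes in this direction.

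Few genes of the pathway lists changed in the tRNA-Phe-1-1-/- brain. Of 19 signal genes tested, the NF-kB inhibitor gene Nfkbia rose, from 374 to 391 normalised counts in WT to 610, 901 and 704 (0.92 ± 0.13, limma, adjusted p = 0.0160). Of 22 positive acute phase genes tested, the metallothionein genes Mt1 and Mt2, which bind zinc, rose. Mt1 had 1836 to 2118 in WT and 2903, 3619 and 3173 in tRNA-Phe-1-1-/- (0.71 ± 0.11, adjusted p = 0.0190). Mt2 had 518 to 553 in WT and 960, 1299 and 968 (1.00 ± 0.15, adjusted p = 0.0192). Each of the 3 had replicate B as the highest of the mutant brains, as Lcn2 did. Of 10 cytokine and receptor genes tested, Nr3c1 fell (-0.43 ± 0.08, adjusted p = 0.0318). Without WT replicate B or C, limma called none of these 4 genes (adjusted p = 0.0569 and 0.0754 for Nfkbia). Without tRNA-Phe-1-1-/- replicate C it called none of them either, Mt1, Mt2 and Nr3c1 were also lost without replicate B, Nr3c1 without replicate A and Mt2 without WT replicate A. edgeR and DESeq2 called each of the 4 with all samples in.

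The other genes of these lists were not called by limma in the tRNA-Phe-1-1-/- brain, while DESeq2 also called Jak2 and Cp higher. Cebpb had 60.2 to 90.3 normalised counts in WT and 109 to 140 in tRNA-Phe-1-1-/- (0.77 ± 0.24, limma, adjusted p = 0.160). Cebpd had 40.2 to 113 and 165 to 197 (1.20 ± 0.41, adjusted p = 0.181). Neither pair of groups overlapped, as for 12.8% of all genes tested in this direction. Stat3 (0.23 ± 0.11, adjusted p = 0.323) and Socs3 (0.01 ± 0.29, adjusted p = 0.988) lay closer to WT. Il6, Tnf and Crp stayed at or below 5.13 and Il1b at or below 17.2 in all brains. Of 12 negative acute phase genes tested 0 were called by limma and by edgeR, and 2 by DESeq2 (Paox and Ttr, both lower). At an unadjusted p under 0.05, 3 of the 12 passed by limma, beside 3063 of all 19228 genes tested. The choroid plexus also makes Ttr. Its list of 10 genes, Ttr among them, summed to 705 to 13480 in WT and to 450 to 629 in tRNA-Phe-1-1-/-. The sums were 236 to 54160 in tRNA-Phe-2-1-/- and 412 to 27550 in tRNA-Phe-3-1-/-. The part of this tissue in the Ttr values was not tested.

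Across the 12 brains, the genes whose log2 values ran most like Lcn2 were Lpin2 (Pearson r = 0.918), Klf4 (0.917), Senp3 (0.914), Cggbp1 (0.911) and Map2k3 (0.904), of 15039 genes with a mean of at least 50. Their Spearman rho was 0.909, 0.923, 0.783, 0.881 and 0.909. As in the liver, this describes 12 samples that include the 3 in which Lcn2 was chosen.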

How the data were processed

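Total RNA of 12 livers and 12 brains was sequenced. The authors trimmed the reads, estimated counts per gene with Salmon and divided them by DESeq2 size factors for each tissue, and they deposited these normalised counts, a signal that is comparable within a tissue (GRCm38.p6, GENCODE). All values were whole multiples of 1 read (tolerance 0.01), so reads could be recovered: 32276896 to 51584522 per liver and 30365760 to 46225360 per brain. The other 12 deposited tables hold the authors' own comparisons (mean signal, log2 fold change with its error, s-value) and were not used.

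Symbols were paired with 93.2% of the Ensembl identifiers. Members and lists were chosen with earlier results of these data known. limma (version 3.58.1, R 4.3.3) was fitted per tissue to log2(normalised count + 1) of all 12 samples with a variance trend, for genes with a mean of at least 10. Tests were two-sided, with the Benjamini-Hochberg adjustment made within each comparison (threshold 0.05). The text names all members, up to 4 called genes per list by adjusted p, landmark genes of the pathway, and the 5 genes most like Saa1 and Saa2 or Lcn2 by Pearson r. Other genes named beside a count of 5 or fewer, or for their level, were chosen after their values were seen. Alternatives were edgeR 4.0.16, DESeq2 1.42.0, other pseudocounts (0.1 and 5), filters and scalings, a replicate block, and leaving out each sample. Replicate letters deviated together (correlations of 0.132, 0.205 and 0.492) in 1 comparison alone, tRNA-Phe-3-1-/- against tRNA-Phe-2-1-/- in the brain. The scripts were tested on simulated data. Single values of 1 gene of the signal list are not reported here.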

Additional observations from a re-analysis of the deposited data

How the results depend on the processing

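With 3 samples per group and WT livers that differed widely in Saa1, Saa2 and Lcn2, the comparisons of single members resolve only large differences, and members near 0 reads in the brain are limited by counting. The members called in the other 2 lines numbered 0 in all settings run, in both tissues. The median difference of the members in the brain depended on the filter, because it decides how many of them are counted. For tRNA-Phe-1-1-/- against WT it was 0.38 with no filter (10 members) and 5.30 with a mean of at least 50 (Lcn2 alone). For tRNA-Phe-3-1-/- it was 1.67 with that filter.

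Leaving out 1 sample at a time gave medians from 2.7 to 3.51 (tRNA-Phe-1-1-/-), -0.19 to 0.34 (tRNA-Phe-2-1-/-) and -0.25 to 0.32 (tRNA-Phe-3-1-/-) in the liver, and from 2.10 to 3.35, -1.22 to -0.12 and -0.10 to 0.70 in the brain. The called genes in tRNA-Phe-1-1-/- livers ranged from 13 to 20 for other positive acute phase genes, 9 to 13 for signal factors, 3 to 7 for cytokines and receptors (3 without WT replicate B) and 0 to 8 for negative ones, and in the brain from 0 to 2 for each of the first 2 lists. The direction in the brain turned for Lcn2 in tRNA-Phe-2-1-/- (range -1.78 to 0.09, the latter without WT replicate C), Hp in tRNA-Phe-1-1-/- (range -1.05 to 0.77, with -0.28 without WT replicate C and -1.05 without tRNA-Phe-1-1-/- replicate A), Hp in tRNA-Phe-2-1-/- (range -0.85 to 0.12, the latter without replicate B) and Socs3 in tRNA-Phe-1-1-/- (range -0.16 to 0.29, below 0 without WT replicate A or B or mutant replicate A or B). None of these 4 differences was called with all samples.

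The negative list in the liver had 3 called genes with no filter, 2 with quantile normalisation and 10 with DESeq2. The report has 6, which all fell. With quantile normalisation 1 of the called genes rose, and with DESeq2 also 1. The brain signal list had 2 called genes with DESeq2 (1 in the report). The cause was not tested. DESeq2 also called more genes overall: 497 against 21 (tRNA-Phe-2-1-/-), 767 against 140 (tRNA-Phe-3-1-/-) and 30 against 0 (between the lines) in the liver, and 875 against 202 (tRNA-Phe-1-1-/-), 21, 373 and 166 against 0 in the brain.

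The deviations of same-lettered samples from their group means correlated at -0.294 to 0.236 in the liver and -0.164 to 0.492 in the brain, over 18 pairs each. All 3 pairs were above 0.1 for 1 comparison alone, that between the other 2 lines in the brain (0.132, 0.205 and 0.492), where the block changed no call of a member. With the replicate letter as a block, the members' medians were 3.20, 0.12 and 0.07 in the liver and 2.73, -0.66 and 0.24 in the brain, 0 members were called in the other lines, and 12 signal genes, 20 other positive and 3 negative acute phase genes were called in the tRNA-Phe-1-1-/- liver.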
